A study of Mus musculus with 24 samples.

Results

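The windows around 7 genes that are used as markers or survival genes of chronic lymphocytic leukemia were examined for trimethylation of histone H3 at lysine 4 (H3K4me3) in leukemic mouse splenocytes with and without knockdown of KDM1A. The genes were Cd5, Lef1, Cxcr4, Zap70, Bcl2, Ror1 and Akt1. A region belonged to a gene's window if it overlapped the window by at least 1 bp, whatever its values. This gave 103 regions out of 63425 in the deposited lists, 83 of them common to both conditions, 17 listed for the knockdown alone (KD regions) and 3 listed for the wild type alone (WT regions). Positions are 1-based and on the build GRCm39.

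H3K4me3 is laid down around the starts of active genes. The breadth of a region was not set against transcription here, since the lists hold no expression values. KDM1A (LSD1) demethylates H3K4 that carries 1 or 2 methyl groups and cannot act on the trimethylated form directly. The leukemia of Eµ-TCL1A mice is driven by transgenic TCL1A, expressed in the B cell lineage, which is a coactivator of AKT kinases. CD5 is the surface protein that separates this leukemia from most normal B cells, while LEF1, ZAP70 and ROR1 are proteins whose abnormal presence is used in the diagnosis or prognosis of the human disease. CXCR4 is the chemokine receptor that draws leukemic cells to CXCL12, and BCL2 and AKT1 hold back cell death.

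All mice were of the strain C57BL/6 and all cells were leukemic splenocytes. The wild-type group had no treatment and the other group is labelled KDM1A knockdown, each with 3 biological replicates and 2 technical replicates of them, as 6 immunoprecipitated and 6 input libraries (24 in all). The labels give neither the way the knockdown was made nor the age and sex of the mice. The lists hold no expression values, so the knockdown itself was not checked here. The deposited lists hold 1 comparison of the conditions as a whole with no value per library, so no difference below could be set against the spread between replicates, and no read depth is known. Each region carries a score that the file headers do not define. One-sided (KD or WT) regions all scored above 3 and common regions all below it, and for a common region the score does not tell which condition was higher. A region listed for 1 condition is therefore a difference as the authors' comparison drew it, and fewer cells with the mark and less of the mark per cell cannot be told apart. Splenocytes also hold T cells, which express Cd5, Lef1 and Zap70. Markers of B and T cells were not located in these lists, so the cells that carry the mark in those windows are not known.

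Gene positions were available for GRCm38.p6 only, a build whose coordinates cannot be set against those of the lists. By gene order alone, the nearest protein-coding neighbours are Vps37c and Cd6 for Cd5, Rpl34 and Hadh for Lef1, Dars and Thsd7b for Cxcr4, 4933424G06Rik and Tmem131 for Zap70, Phlpp1 and Kdsr for Bcl2, Pgm1 and Ube2u for Ror1, and Siva1 and Zbtb42 for Akt1. A window may reach into a neighbour. No region was therefore assigned to a promoter, exon or intron, and the values describe windows and not transcripts.

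The starts of the 7 genes differ widely in CpG content, which is the sequence feature that H3K4me3 follows most closely at mammalian promoters. All 7 were found in the promoter table of RefSeq (GRCm38.p6), which gives 300 bases per start. Over its 32851 promoters the median was 7 CpG dinucleotides (letters CG, which read the same on both strands). Bcl2 had 44 CpG, a number reached by 2.25% of all promoters, and Cxcr4 had 20, reached by 26.5%. Ror1 had 10, while Cd5 had 3, fewer than the median. The 4 genes with a single start in the table are printed here for the 250 bases before the start, 5′ to 3′ on the gene's own strand, with CpG in capitals, because they span this range. On GRCm38.p6, and so not comparable with the positions of the regions, they lie at chr1:106714291-106714540 on the minus strand (Bcl2), chr1:128592300-128592549 on the minus strand (Cxcr4), chr19:10738975-10739224 on the minus strand (Cd5) and chr4:100095541-100095790 on the plus strand (Ror1).
Bcl2: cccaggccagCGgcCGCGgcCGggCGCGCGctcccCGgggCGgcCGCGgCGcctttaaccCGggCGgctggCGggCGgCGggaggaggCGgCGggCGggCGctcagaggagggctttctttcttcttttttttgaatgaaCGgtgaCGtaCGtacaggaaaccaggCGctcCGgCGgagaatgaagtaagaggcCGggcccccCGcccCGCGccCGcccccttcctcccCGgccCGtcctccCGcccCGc
Cxcr4: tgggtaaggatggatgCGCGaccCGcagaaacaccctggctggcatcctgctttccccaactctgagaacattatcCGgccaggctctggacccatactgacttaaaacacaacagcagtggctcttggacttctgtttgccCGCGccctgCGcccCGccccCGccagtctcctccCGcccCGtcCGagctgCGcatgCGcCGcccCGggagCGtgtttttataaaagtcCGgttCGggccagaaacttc
Cd5: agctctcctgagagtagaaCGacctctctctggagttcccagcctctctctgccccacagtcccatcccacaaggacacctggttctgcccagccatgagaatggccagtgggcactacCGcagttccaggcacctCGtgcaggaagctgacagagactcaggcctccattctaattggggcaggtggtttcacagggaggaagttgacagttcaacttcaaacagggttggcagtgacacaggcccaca
Ror1: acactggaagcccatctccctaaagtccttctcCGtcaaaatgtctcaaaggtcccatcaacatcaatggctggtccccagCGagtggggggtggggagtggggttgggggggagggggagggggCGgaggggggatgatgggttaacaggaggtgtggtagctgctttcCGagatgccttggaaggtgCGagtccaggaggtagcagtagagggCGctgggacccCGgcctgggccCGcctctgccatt

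These stretches hold 36 CpG for Bcl2, 19 for Cxcr4, 3 for Cd5 and 8 for Ror1. The other 3 genes have several starts. Akt1 has 2, with 8 and 42 CpG in 300 bases, and the latter number was reached by 3.03% of promoters. Lef1 has 4 starts with 18, 21, 8 and 5 CpG, and Zap70 has 3 starts with 8, 5 and 9. A GC content of at least 50% with an observed-to-expected CpG ratio of at least 0.6 was met by Bcl2, Cxcr4, the second start of Akt1 and the second start of Lef1, and by 33.5% of all promoters.

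**Figure D1:**
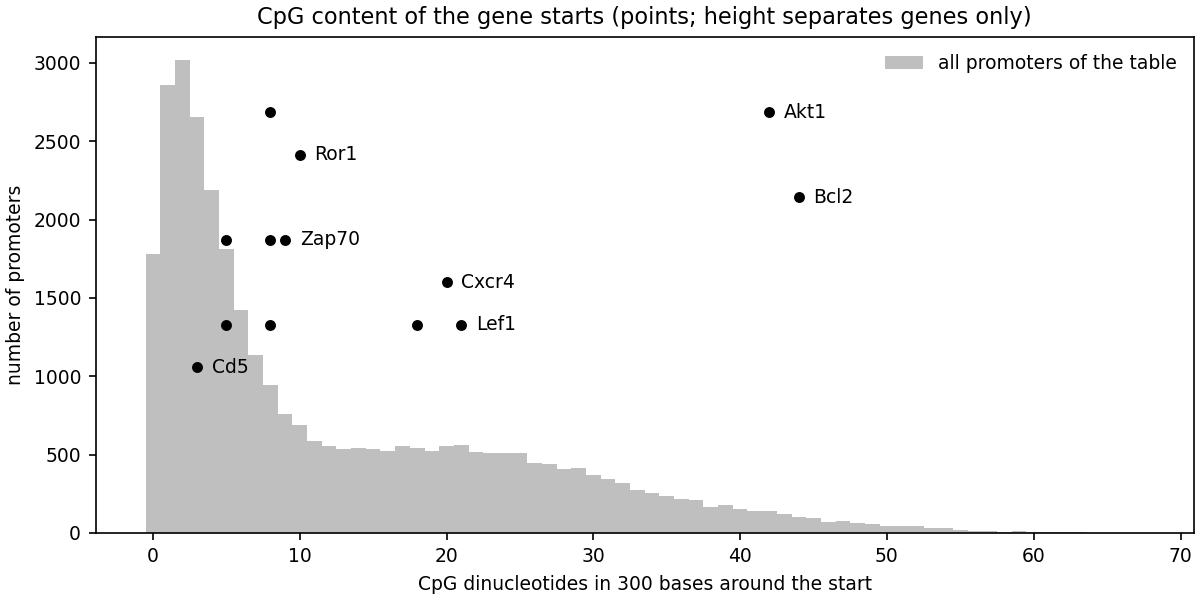
CpG content of the starts of the 7 genes. Bars give the number of RefSeq promoters (GRCm38.p6, n = 32851) at each number of CpG dinucleotides in 300 bases, and each point is 1 start of the named gene, with its height only separating genes. Bcl2 (44) and 1 start of Akt1 (42) lie at the far right, and Cd5 (3) lies at the left.

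Marked length ranged from none at Ror1 to its highest at Bcl2. The summed length of all regions was 51.1 kb in the 240-kb window of Bcl2, 26.8 kb in the 80-kb window of Akt1 and 17.3 kb in the 160-kb window of Lef1. It was 15.1 kb in the 70-kb window of Cd5, 12.1 kb in the 60-kb window of Cxcr4 and 1.5 kb in the 80-kb window of Zap70. The 390-kb window of Ror1 held no region of any list. Since the windows differ in size, the length per 100 kb of window is the fairer measure. It was 33.5 kb for Akt1, 21.6 kb for Cd5, 21.3 kb for Bcl2, 20.2 kb for Cxcr4, 10.8 kb for Lef1 and 1.84 kb for Zap70. Cd5 and Bcl2 were thus marked over similar parts of their windows. These lengths cannot be set against the CpG content of the starts, since no region was assigned to a start.

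**Figure D2:**
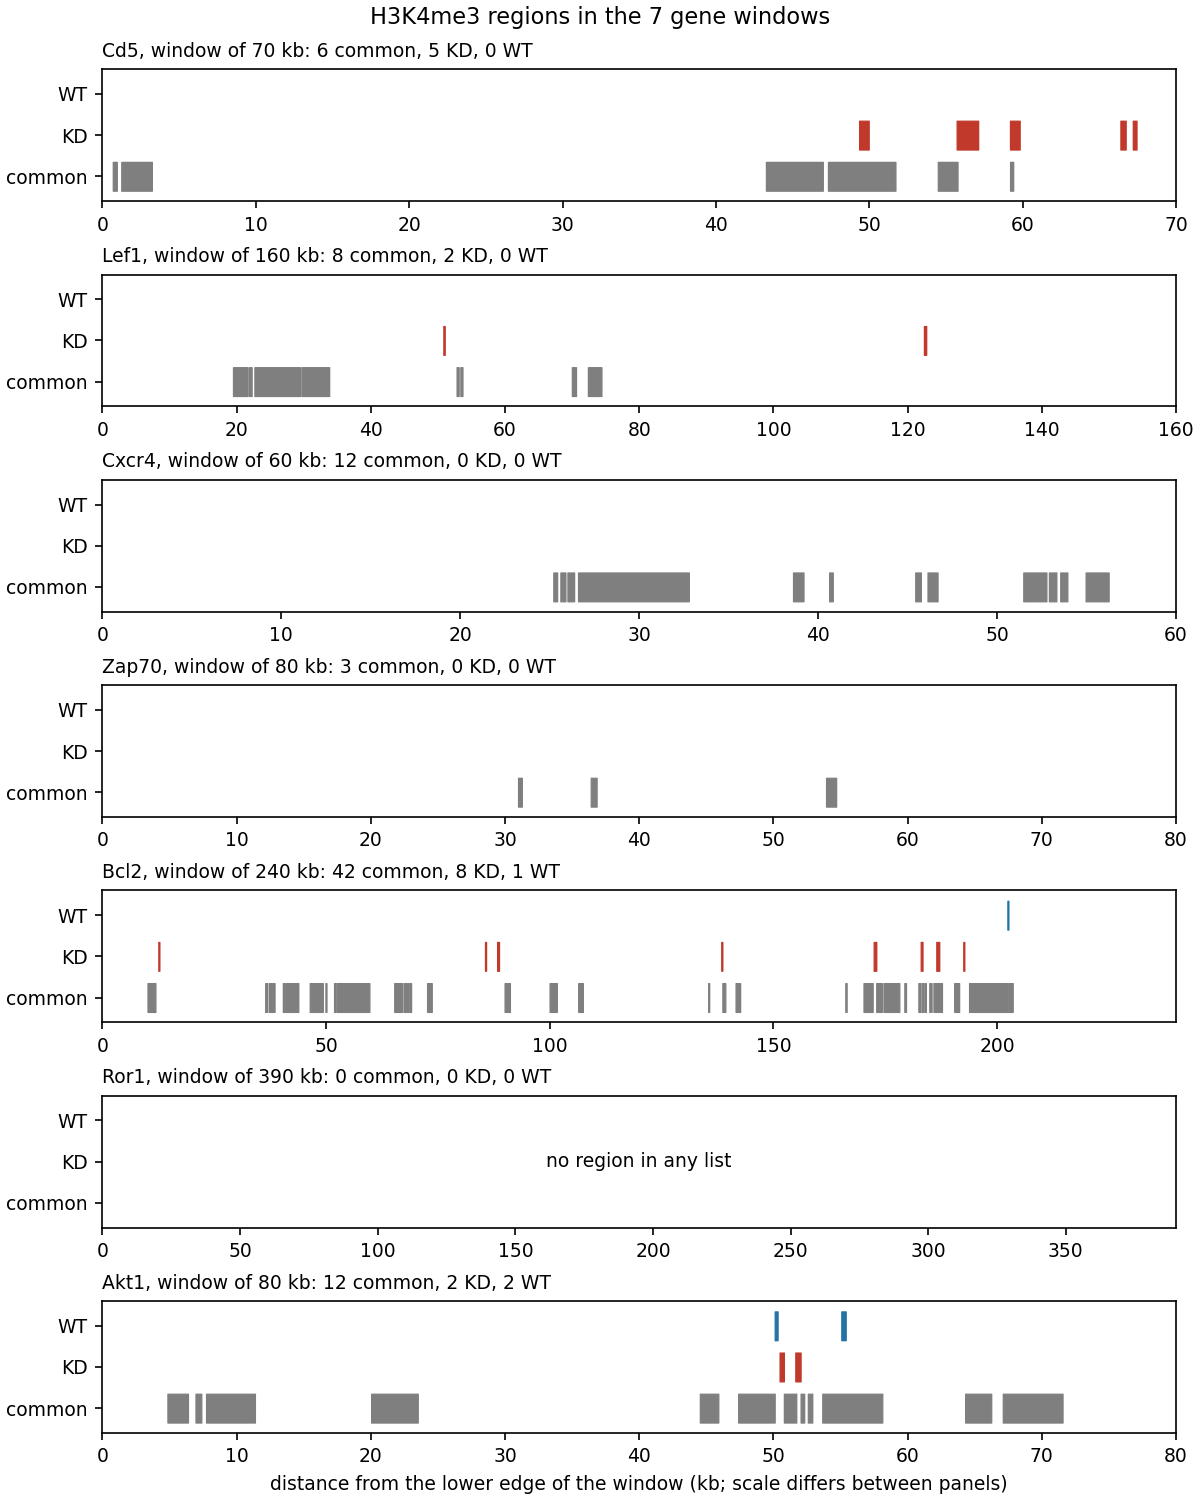
Regions of the 3 lists in each window, drawn to scale by their distance in kb from the lower edge of the window, with common regions in grey, KD regions in red and WT regions in blue. Cxcr4 and Zap70 hold common regions alone (12 and 3), Ror1 holds none, and the 3 WT regions lie in the windows of Bcl2 and Akt1.

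For marked length against autosomal windows of their own size, the windows of the 2 survival genes ranked highest, followed closely by those of Cd5 and Cxcr4. Of 29854 windows of 80 kb laid end to end over the autosomes, 0.981% held at least as much marked length as that of Akt1. The corresponding share was 1.94% of 240-kb windows for Bcl2, 3.55% of 70-kb windows for Cd5, 4.34% of 60-kb windows for Cxcr4 and 10.4% of 160-kb windows for Lef1. For Zap70 it was 29.5%, while 63.4% of windows of its size, which is also that of Akt1, held no region. Of the 240-kb windows 46.8% were empty, so the shares are taken against many windows without any mark. An empty window of 390 kb, as at Ror1, was common, at 39% of 6114. These shares describe the lists only, since the windows were drawn around known genes.

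Pooled over the windows, differences between the conditions made up a smaller part than over the genome, but the Cd5 window went the other way. KD regions were 17 of the 103 regions (16.5%), against 23.4% of all 63397 regions on the assembled chromosomes, and WT regions were 3 (2.91%), against 8.4%. By length, one-sided regions made up 6.7% of the 124.0 kb marked in the windows and 13.7% of the marked length of all chromosomes. In the Cd5 window alone this part was 21.5%, and in the other marked windows it was 0 to 6.37%. Sequence shared with common regions counts in both lists here, at Cd5 625, 58 and 204 bp. The shares were not recomputed with it counted once, which lowers the marked length of Cd5 from 15.1 to 14.2 kb. Of the 5 KD regions at Cd5, 1 scored at least 5. The Bcl2 window supplied 51 of the 103 regions. Among the 20 one-sided regions 85% were KD regions (95% Wilson interval 64 to 94.8%, counting error only, with neighbouring regions treated as independent). The share over all chromosomes, 73.6%, lies inside that interval. KD length exceeded WT length in 4 of the 7 windows, those of Cd5, Lef1, Bcl2 and Akt1, at Akt1 by 0.71 against 0.54 kb. The other 3 windows held no one-sided region. Over all chromosomes KD length was also the greater, 7747 against 3310 kb, and the share of windows of the same size with such an excess was not counted.

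**Figure D3:**
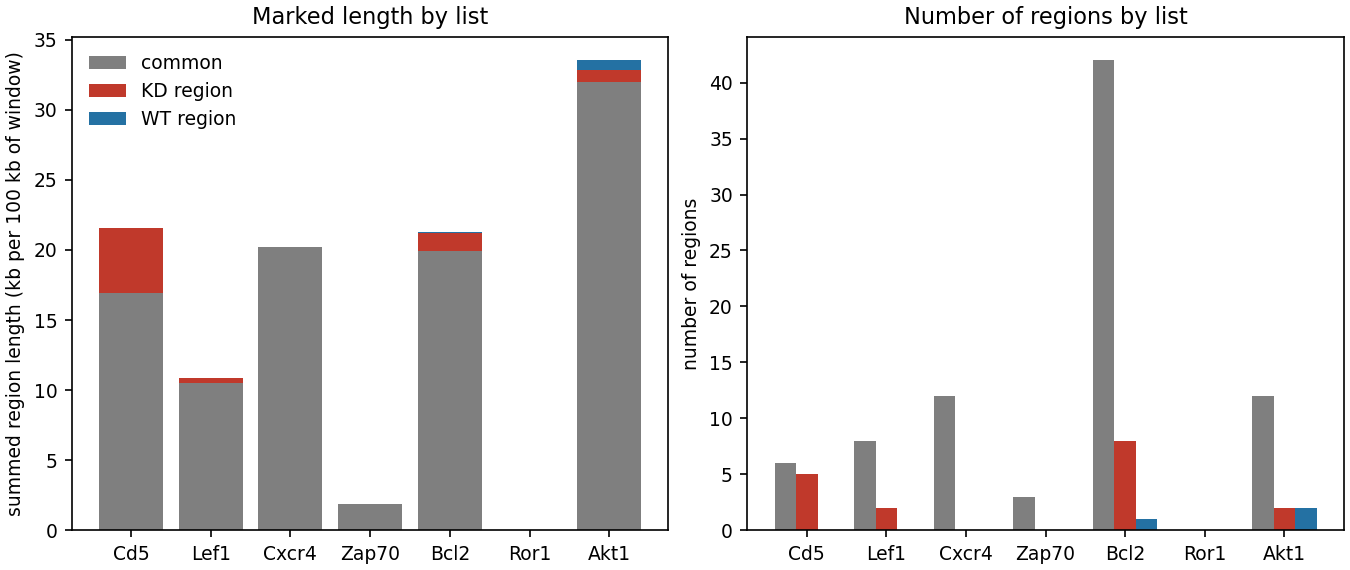
Left, summed length of the regions of each list in kb per 100 kb of window, stacked. Right, number of regions of each list. Akt1 has the highest bar (33.5 kb per 100 kb), Cd5 has the largest KD share of its bar (3.25 of 15.1 kb), and Ror1 is empty.

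The Cd5 window, on chromosome 19 between 10.67 and 10.74 Mb, had the largest one-sided share of marked length. CD5 is a scavenger receptor family protein that dampens antigen receptor signalling in T cells and in the B cells that express it. KD regions numbered 5 of 11, and there was no WT region. The KD regions covered 3.25 kb, or 21.5% of the marked length, with sequence shared with common regions counted in both lists. One-sided regions made up 13.7% of the marked length over the genome and 12.9% on chromosome 19. Chromosome 19 as a whole had 27.4% KD regions and 5.52% WT regions, and its KD share of one-sided regions, 83.2%, was above that of the genome. The 500 kb on both sides of the window held 8 KD, 4 WT and 52 common regions.

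The broadest common region of the Cd5 window, at chr19:10717309-10721708, was 4400 bp long, and 7.6% of all common regions were at least as long. It lay 334 bp above another common region of 3711 bp, and the pair formed a domain of 8.4 kb when regions within 1 kb of each other were joined. A KD region of 625 bp, at 10719342 to 10719966 with a score of 3.58, lay wholly inside it. The lists are thus not exclusive: 8.44% of all KD regions lay inside a common region and 41.2% overlapped one in part. The longest KD region in any of the windows, 1404 bp at 10725701 to 10727104 with a score of 4.54, shared 58 bp with the end of a common region of 1287 bp and ran on from there. Only 5.19% of KD regions in the genome were as long.

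Further up the Cd5 window the KD regions had little or no common sequence beside them. A KD region of 632 bp, at 10729179 to 10729810 with a score of 4.27, enclosed a common region of only 204 bp whose score of 2.32 was the highest of the 83 common regions in the windows. A pair of KD regions, of 344 bp with a score of 6.80 at 10736380 to 10736723 and of 244 bp with a score of 4.92 at 10737187 to 10737430, lay 463 bp apart. They were 7.0 and 7.8 kb from the nearest common region. Cd5 is read from the minus strand, so its start lies at the higher-numbered end of the gene. Where the gene lies within the window was not determined, so these KD regions were not placed relative to its start.

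**Figure D4:**
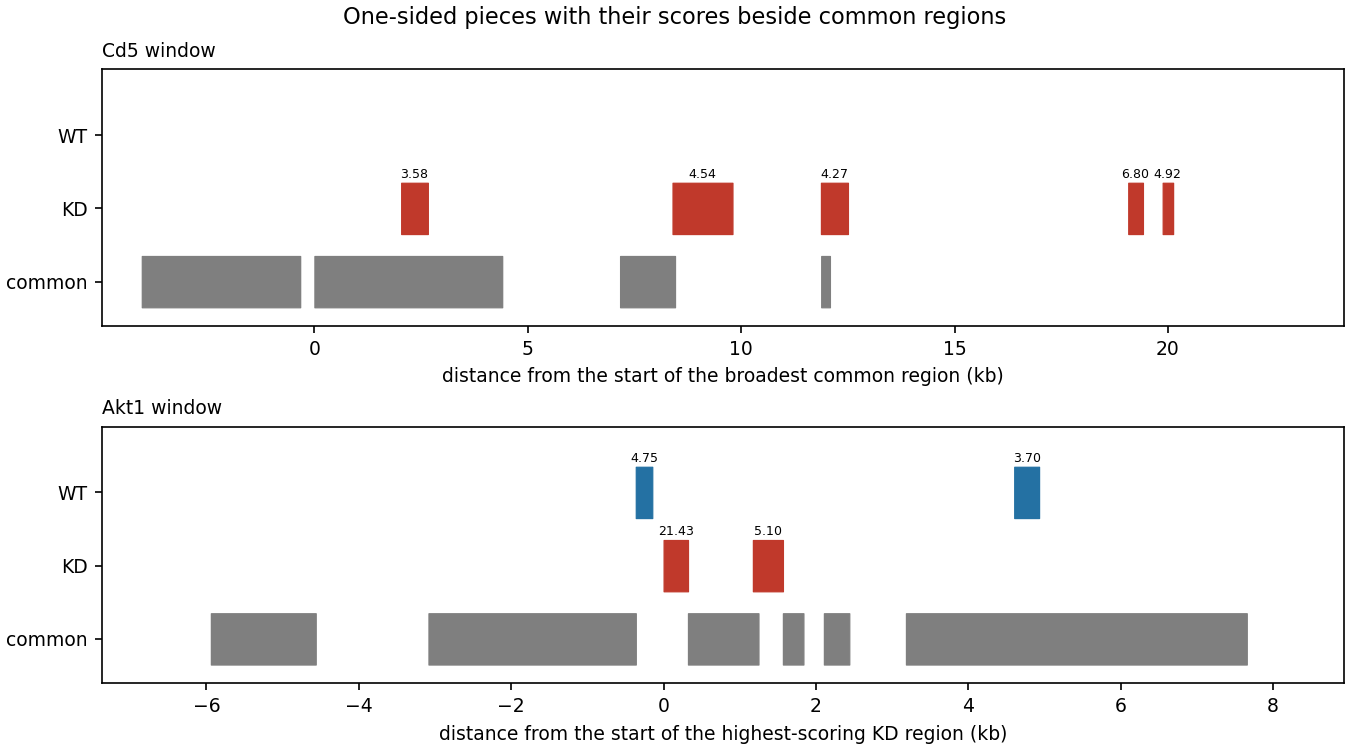
Regions of the Cd5 window (top, in kb from the start of its broadest common region) and of the Akt1 window (bottom, in kb from the start of its highest-scoring KD region), with the score printed above each one-sided region. In the Cd5 window 5 KD regions (scores 3.58 to 6.80) follow each other upwards, and in the Akt1 window a KD region with a score of 21.4 lies between a WT region and common sequence.

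The Lef1 window, on chromosome 3 between 130.88 and 131.04 Mb, held 1 broad shared block and 2 KD regions away from it. LEF1 is the transcription factor that, with TCF7, carries Wnt signals to DNA, and it is absent from most mature B cells. At the lower end of the window, 4 common regions of 2182, 394, 6806 and 4144 bp formed a domain of 14.3 kb, the longest of all 46 domains in the windows, and 1.38% of the 28503 domains of the genome were as long. The region of 6806 bp, at chr3:130902646-130909451, was the second broadest in any window. No one-sided region touched this block. Lef1 is read from the plus strand and has 4 listed starts, and to which of these, if any, the block belongs was not determined.

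The KD regions of the Lef1 window did not touch common sequence. They measured 201 bp, at 130930812 to 130931012 with a score of 4.88, and 345 bp, at 131002435 to 131002779 with a score of 4.74. The first lay 1.8 kb and the second 48.1 kb from the nearest common region, and at 201 bp the first was shorter than nearly all KD regions, 99.6% of which were at least as long. Both scores were close to the median of all KD regions, 4.49. Within 500 kb on both sides there were 3 WT regions, 16 common regions and no KD region.

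The Cxcr4 window, on chromosome 1 between 128.49 and 128.55 Mb, held shared H3K4me3 alone. CXCR4 is a G-protein-coupled receptor that keeps B cells in the niches of marrow and lymphoid tissue. All 12 regions were common, and they covered 12.1 kb. The broadest, at chr1:128516581-128522775, was 6195 bp long and made up 51.1% of that length, and 2.58% of common regions were as long. Its score was 0.945, above the median of all common regions (0.521), and the other 11 regions, of 206 to 1293 bp, scored between 0.229 and 0.862. A window without one-sided regions was not rare: 37.3% of the 60-kb windows that held any region had none. The surroundings were poor in differences as well, with 1 KD region, no WT region and 20 common regions in the 500 kb on both sides.

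In the Zap70 window, on the same chromosome between 36.77 and 36.85 Mb, the mark was scant in both conditions. ZAP70 is the kinase that couples the T cell receptor to its downstream signals. There were 3 common regions, of 282 bp at chr1:36800973-36801254, 439 bp at chr1:36806388-36806826 and 751 bp at chr1:36823927-36824677. Each was shorter than the median common region of 870 bp, and no other lay within 1 kb of any of them. The 500 kb on both sides held 63 common, 20 KD and 5 WT regions, with a summed length of 86.9 kb. A mark carried by a minority of cells, such as T cells, cannot be told apart from a weak one here.

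The Ror1 window, on chromosome 4 between 99.93 and 100.32 Mb, was empty in all 3 lists. ROR1 is a receptor for Wnt5a, found on human leukemic B cells and on few adult tissues. The nearest regions lay 130.2 kb below the window, a common region of 303 bp, and 486.3 kb above it, a WT region of 227 bp with a score of 3.12. Only 6 regions (5 common, 1 WT) were present in the 500 kb on both sides. Absence from the lists says that no region passed the authors' thresholds, and without depth no upper limit can be put on the mark.

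The Bcl2 window, on chromosome 1 between 106.44 and 106.68 Mb, had the largest summed length and the most regions, in the second largest window. BCL2 binds and blocks the proteins that open the outer mitochondrial membrane in apoptosis. The window held 42 common, 8 KD and 1 WT regions in 21 domains. The broadest common region of all 7 windows lay here, at chr1:106633751-106642356, with 8606 bp. Only 0.879% of common regions in the genome were as long, and its score of 0.475 was slightly below the median of common regions (0.521). It lay towards the upper end of the window. Bcl2 is read from the minus strand, but its start was not placed on the build of the regions, so this region was not assigned to it.

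Shared H3K4me3 was not confined to that block. A second broad common region of 6392 bp, at chr1:106492354-106498745, lay lower in the window. Around it, 18 common regions between 106476388 and 106513624 followed each other with no one-sided region among them and covered 19.1 kb. The median length of the 42 common regions was nevertheless 490.5 bp, so most of them were short pieces, and the broadest alone made up 18% of their 47.85 kb.

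The KD pieces of the Bcl2 window had a median score slightly below that of the whole KD list and varied in length. The 8 KD regions measured 233 to 663 bp and covered 3.03 kb, and their scores ran from 3.45 to 4.76, with a median of 4.27 against 4.49 for all KD regions. None reached a score of 5, but 3 of the 8 scored above the median of all KD regions. In length, 4 of the 8 exceeded the median KD region of 341 bp. Of the 8, 4 lay between 106612423 and 106632691, below the broadest common region, which begins at 106633751. Only the uppermost of them had no other common region in between. The longest of these, 663 bp at 106626425 to 106627087 with a score of 3.45, lay inside a common region of 1905 bp. One of 587 bp, at 106612423 to 106613009 with a score of 4.53, lay 226 bp above a common region and shared 17 bp with the next one. One of 401 bp, at 106622938 to 106623338 with a score of 3.56, lay 53 bp above a common region and shared 182 bp with the next. The fourth, 235 bp with a score of 4.34, stood in the space between a common region 929 bp below it and the broadest one 1059 bp above it.

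The other 4 KD regions of the Bcl2 window were scattered. They lay at 106452492 to 106452724 (233 bp, score 4.17), 106525529 to 106525767 (239 bp, score 4.76), 106528233 to 106528662 (430 bp, score 4.64) and 106578345 to 106578589 (245 bp, score 4.21). The last of these was 6 bp from a common region, and the nearest common sequence to the others was 652 bp to 4.1 kb away. The only WT region, 224 bp at 106642317 to 106642540 with a score of 4.35, sat on the upper border of the broadest common region. It shared 40 bp with that region and 19 bp with the next common region, of 986 bp, so that it bridged the space between them. Chromosome 1 had 20.6% KD and 10.1% WT regions, while the window had 8 and 1 of 51. The 500 kb on both sides held 2 KD, 20 common and no WT regions, a KD part of 9.09%.

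The Akt1 window, on chromosome 12 between 112.59 and 112.67 Mb, held the only domain of the 7 windows with pieces of both directions. AKT1 is the serine/threonine kinase through which PI3K signals promote survival and growth, and TCL1A binds it. There were 12 common, 2 KD and 2 WT regions. KD regions covered 0.71 kb and WT regions 0.54 kb. The broadest common region measured 4473 bp, at chr12:112643644-112648116, with another of 4453 bp, at chr12:112657097-112661549, close to it in length. The median length of its common regions, 1737 bp, was the highest of the 6 marked windows, and 9 of the 12 were longer than the genome's median.

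All 4 one-sided regions lay in a domain of 10.7 kb between 112637377 and 112648116, which joined 9 regions. Over the genome, 554 of 28503 domains held both KD and WT regions, and in the windows this domain alone among 46. This is too few to show a departure from the genome's share. The domain was also long, with 3.01% of all domains as long. From below, a common region of 2721 bp ended at 112640097 and a WT region of 216 bp with a score of 4.75 followed directly, at 112640098 to 112640313. After a gap of 149 bp came a KD region of 320 bp, at 112640463 to 112640782, with a score of 21.4. It was followed without a gap by a common region of 925 bp, and that by a KD region of 394 bp with a score of 5.10, at 112641635 to 112642028, which shared 73 bp with it. The second WT region, 326 bp at 112645065 to 112645390 with a score of 3.70, lay inside the broadest common region.

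The KD region with the score of 21.4 stood apart from all other one-sided pieces of the windows, the next of which scored 6.80. It ranked among the 137 highest of 14823 KD regions (0.924%), while its length was ordinary, with 57% of KD regions as long. Of 171 KD regions with a score of at least 20, 49 touched or overlapped a common region and 35 of these 49 were at most 500 bp long, as was the region with 21.4. It was not the highest score of its surroundings: KD scores reached 51.2 in the 500 kb on both sides and 85.9 on chromosome 12. In those 500 kb WT regions were more numerous, with 26 WT, 11 KD and 71 common regions. The KD share of chromosome 12 was 58%. Akt1 has 2 listed starts and close neighbours, and to which of these the pieces belong was not determined.

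**Figure D5:**
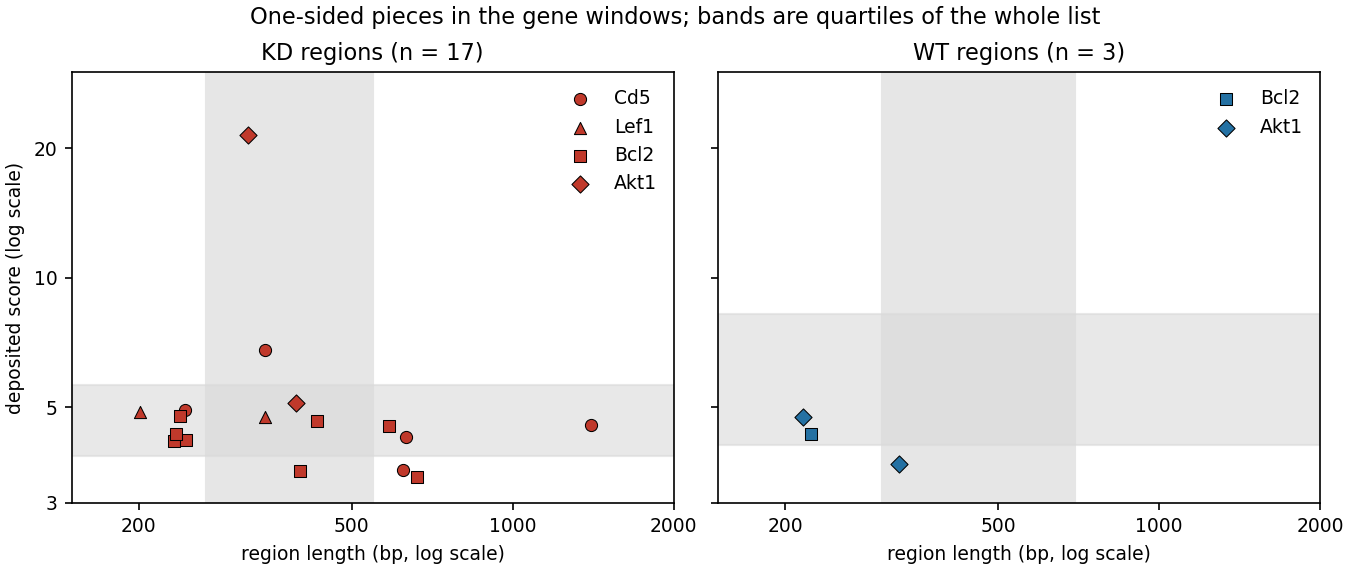
Length (bp) against deposited score, both on log scales, of the 17 KD regions (left) and 3 WT regions (right) of the windows, with symbols by gene. Grey bands span the lower to the upper quartile of the whole list. One KD region of Akt1 lies far above the band at 21.4, and the 3 WT regions lie below the median of their list in length and score.

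Over all windows the 17 KD pieces had medians close to those of the whole KD list. Their median length was 345 bp, against 341 bp, and their median score 4.54, against 4.49. A score of at least 5 was reached by 3 of them, 1 in the Cd5 window and 2 in the Akt1 window, and by 36.2% of the whole list. The 3 WT pieces were at most 326 bp long and scored at most 4.75, all below the medians of the WT list (429 bp and 5.29).

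One-sided pieces with and without contact with shared H3K4me3 were found in the windows. Of the 17 KD regions 8 touched or overlapped a common region, where the whole list had 54.6%, and 6 lay over 1 kb away, where it had 25.8%. These 6 were the pair in the Cd5 window, both KD regions of the Lef1 window and 2 of the Bcl2 window. All 3 WT regions touched or overlapped a common region, as did 67% of all WT regions. With 17 and 3 regions that share 7 windows, these counts describe the members. They are too few to show a departure from the lists or a difference between windows.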

How the data were processed

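H3K4me3 was measured by chromatin immunoprecipitation and sequencing in 24 libraries of 4 groups of 6. The submitters' processing notes name GRCm39 as the build and MACS2 2.2.6, Bowtie2 2.2.9 and SAMtools 1.6 as tools, without settings or any word on pooling. What the authors deposited are 3 lists of regions, each with its score: those found in the knockdown alone, in the wild type alone, and in both, per the file headers.

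Lists were read as deposited with Python 3.11.15, pandas 2.3.3 and numpy 2.4.6, and drawn with matplotlib 3.10.9. For values over the genome, 28 regions on unplaced contigs were not counted. Lengths are of whole regions, summed over lists. Domains join regions at gaps of at most 1 kb. Contact means a gap of 0 bp. All regions were described by the rule that every KD or WT region is given, and the broadest common one. The contact and domain code was tested on 400 simulated regions and recovered 100% of their classes. Windows, genes and summaries were chosen with earlier results of these data known. Pathway and cell type marker genes were not located, since no GRCm39 annotation was used. With no value per library, no p-value is given. Alternatives concerned score, length, window edges and overlap.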

Additional observations from a re-analysis of the deposited data

How the results depend on the processing

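Of 76 alternative values, 60 stayed within 1.5 times of the reported one or, for the KD share, within its counting interval. With one-sided scores of at least 5, the count was 3 for KD and 0 for WT regions (KD share 100%), 0.906% of marked length was one-sided and 2 windows had more KD than WT length. With regions of at least 500 bp, these values were 5, 0, 100%, 3.67% and 2. Over all regions the KD share was 64.9% at that score and 66.6% at that length. Joining common regions within 1 kb lengthened the broadest stretch to 8445 bp (Cd5), 14335 bp (Lef1) and 10740 bp (Akt1). Windows narrowed by 20 kb on both sides held 8736 bp (Cd5), 7649 bp (Cxcr4) and 14829 bp (Akt1). Widening moved none of the values run by over 1.5 times. Nor did counting shared sequence once, which was chosen after seeing the data and run for the marked lengths alone. No region crossed a window edge, so clipping and a minimum overlap by region length could not change any value. These settings, and the values of the empty Ror1 window, are counted among the 60. In the widened Cd5 window the broadest common region was another, of 4653 bp, just outside the edge used. No paired analysis was possible because no list has values of single libraries, and leaving out replicates was not possible either. What depth limits cannot be stated.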
